A study of Mus musculus with 6 samples.

Results

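Levels of 10 genes of cysteine and glutathione metabolism were compared between mouse B lymphoma cells carrying a hairpin named for Dhx9 and cells carrying a control hairpin. The genes were Cth, Cbs, Slc7a11, Gclc, Gclm, Gss, Gsr, Mgst1, Chac1 and Chac2, chosen by gene symbol for their place in transsulfuration, cystine uptake, or glutathione synthesis, use and breakdown. All 10 had a probe set among the 18784 genes tested. The group was proposed with the differences between the hairpins on these same arrays known, Cth being among the largest falls, so the differences of these 10 genes are given as a description and their p-values are not independent evidence.

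The cells were Arf-/- lymphoma cells with the Eµ-myc and Bcl-2 transgenes, and both groups share this genotype. Eµ-myc places the MYC oncogene under an immunoglobulin enhancer that is active in B cells, Bcl-2 encodes a survival protein, and Arf is a tumour suppressor gene. There were 3 arrays with the hairpin Dhx9.1241 and 3 with Rluc.713, a control named for Renilla luciferase, and each group rests on a single hairpin sequence. The labels state no drug treatment, and they do not say whether the arrays of a hairpin are separate cultures or how many tumours gave rise to the cells, so p-values reflect array-to-array spread alone, and part of that spread may be technical. The cells grew on a feeder layer of irradiated Arf-/- embryonic fibroblasts in medium with β-mercaptoethanol, a reducing agent that helps cultured lymphocytes obtain cysteine. Values are log2 expression levels per probe set and array after robust multi-array averaging (RMA), which corrects the background and brings all arrays to a shared distribution. A level is the signal of its own probe set and does not rank the transcripts of different genes.

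Dhx9, the RNA helicase gene that the hairpin names, averaged 11.42 in Dhx9.1241 cells and 12.42 in Rluc.713 cells. The sample titles name Dhx29 in its place, which averaged 10.45 and 10.40 in the same order, with a log2 difference of 0.04 (limma adjusted p = 0.857). All 9 measured B cell markers lay above the median level of 8.48 over all genes and arrays, with means from 10.02 to 13.84. Of these, 1 was called lower, Vpreb3, a relative of the surrogate light chain genes of the pre-B cell receptor (log2 difference -0.57, limma adjusted p = 0.000891), and the other 8 were not called. Over all genes, 1.07% were called lower. At an unadjusted p under 0.05, 2 of the 9 were lower, Vpreb3 and Ebf1 (-0.17), and 1 was higher. The higher marker was Ms4a1 (log2 difference 0.31, limma adjusted p = 0.0717), and its arrays did not overlap. Of all 18784 genes, 1058 were lower and 1597 higher at that unadjusted threshold. The summed linear level of the 9 B cell markers was 65111 to 68068 in Dhx9.1241 cells, against 69074 to 73786 in Rluc.713 cells. Among markers of other cells, 6 of 11 myeloid, 8 of 13 fibroblast and all 9 T and NK cell markers lay below the median level. Rluc.713 replicate 1 stood apart from the other arrays on the second principal component (-16.74, against -3.62 to 5.61), and where leaving it out moves a member's difference by over 1.5 times, the value without it is given. The number of arrays limits the precision.

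Cysteine is made from methionine through homocysteine by transsulfuration, in which CBS forms cystathionine and CTH splits it, or it enters the cell as cystine through the transporter whose light chain is SLC7A11. Glutamate-cysteine ligase and glutathione synthetase then build glutathione, the main thiol antioxidant of the cell. Glutathione reductase recycles its oxidised form, transferases attach it to other molecules, and the CHAC cyclotransferases degrade it. In stressed cells the transcription factor ATF4 raises genes of amino acid supply, among them CTH, SLC7A11 and CHAC1, and NRF2 raises genes of glutathione synthesis.

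Promoter sequences are shown for the members in which an element linked to ATF4 or NRF2 was found, since both kinds of member, lower and not called, are among them. RefSeq promoters (GRCm38.p6) were available for 7 of the 10 members, as 8 promoters of 250 bases before and 50 bases after a start: Cbs, Chac1, Chac2, Gclm, Gss, Slc7a11 and both starts of Mgst1. They were searched on both strands for the C/EBP-ATF composite element TGATGNAAN and the antioxidant response element TGACNNNGC. The composite element was found in 2 of the 8 promoters and in 3.95% of all 32851 promoters in the table, the antioxidant element in 2 of the 8 and in 12.4% of all. A match is a description of letters, not a site of binding, and no matches overlapped. The bases before the start are printed 5′ to 3′ on the gene's strand, with matches in capitals. Chac1 (chr2:119350992-119351241, plus strand) had the composite element at positions -194 to -186 from the start, and Slc7a11 (chr3:50443614-50443863, minus strand) at -66 to -58 and -48 to -40. Mgst1 (chr6:138140277-138140526, plus strand, the first of its starts) had the antioxidant element at -56 to -48, and Gclm (chr3:122245307-122245556, plus strand) at -134 to -126.
Chac1: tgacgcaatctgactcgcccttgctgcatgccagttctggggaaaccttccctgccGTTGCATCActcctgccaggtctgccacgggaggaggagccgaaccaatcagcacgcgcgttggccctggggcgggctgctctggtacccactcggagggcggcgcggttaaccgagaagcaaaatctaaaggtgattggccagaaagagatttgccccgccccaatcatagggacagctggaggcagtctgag
Slc7a11: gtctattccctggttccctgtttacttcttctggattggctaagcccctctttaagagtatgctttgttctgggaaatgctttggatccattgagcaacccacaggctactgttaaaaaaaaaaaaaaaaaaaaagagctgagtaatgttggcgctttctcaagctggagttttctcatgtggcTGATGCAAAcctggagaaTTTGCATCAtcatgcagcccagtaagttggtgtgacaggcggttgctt
Mgst1: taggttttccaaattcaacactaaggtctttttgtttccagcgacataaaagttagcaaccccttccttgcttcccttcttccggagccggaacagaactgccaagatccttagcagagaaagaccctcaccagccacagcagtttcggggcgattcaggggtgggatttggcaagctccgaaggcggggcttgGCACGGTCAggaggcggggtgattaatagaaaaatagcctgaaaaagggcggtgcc
Gclm: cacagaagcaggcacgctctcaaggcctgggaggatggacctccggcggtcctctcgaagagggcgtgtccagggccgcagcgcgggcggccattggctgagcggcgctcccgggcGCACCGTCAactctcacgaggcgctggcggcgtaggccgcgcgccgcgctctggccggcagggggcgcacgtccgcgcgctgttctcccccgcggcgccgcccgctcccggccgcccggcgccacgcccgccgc

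Of the 10 genes, 3 were lower in Dhx9.1241 cells at a limma adjusted p under 0.05: Cth, which makes cysteine, Mgst1, which encodes a membrane-bound glutathione transferase, and Chac1, which encodes an enzyme that breaks glutathione down. None was higher in the limma test, and 1, Gsr, was higher at an unadjusted p under 0.05. Of all 18784 genes, 1058 were lower and 1597 higher at that unadjusted threshold. Over all genes tested 1.07% were called lower and 2.07% higher, and because the group was proposed with this comparison in view, nothing is read from its count. The median log2 difference of the 10 genes was -0.03, against 0.00 over all genes. The members fell into 3 with a log2 difference of -0.65 or lower and 7 between -0.04 and 0.14. The arrays of the hairpins did not overlap for the 3 lower genes, nor for Cbs and Gsr, which were on the higher side; such separation was seen for 8.51% of all genes on the lower side and 11.6% on the higher side.

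**Figure D1:**
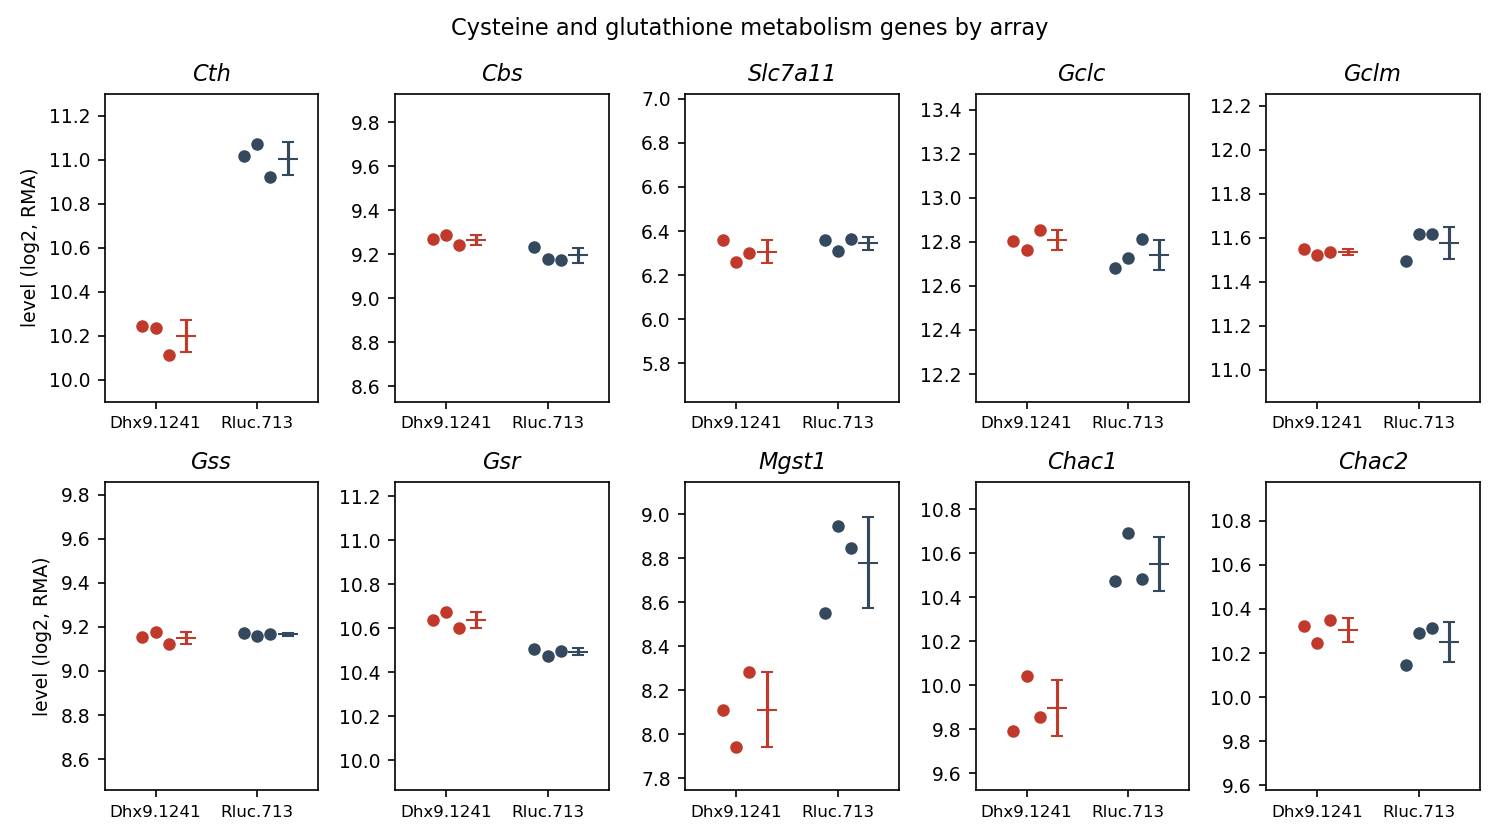
Levels (log2, RMA) of the 10 genes on 3 Dhx9.1241 and 3 Rluc.713 arrays, with 1 point per array and the mean ± SD beside the points; every panel spans the same width on the log2 axis. The Dhx9.1241 points of Cth, Mgst1 and Chac1 lie below all Rluc.713 points, and the points of Slc7a11, Gclc, Gclm, Gss and Chac2 overlap.

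In transsulfuration, Cth stood at 10.25, 10.23 and 10.11 in Dhx9.1241 cells, against 11.02, 11.07 and 10.92 in Rluc.713 cells. All 3 Dhx9.1241 arrays lay below the lowest control, by a gap of 0.68, while the arrays of a hairpin stayed within an SD of 0.073 in Dhx9.1241 cells and 0.075 in Rluc.713 cells (n = 3 each). Cth fell by 0.81 on the log2 scale (SE 0.060, 95% interval -0.94 to -0.67, limma adjusted p = 0.000657), a level 1.75-fold lower with an interval of 1.59 to 1.92. Its log2 difference was the 11th lowest of all genes tested. Without Rluc.713 replicate 1 it was -0.80 (limma adjusted p = 0.000834).

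Cbs, which encodes the enzyme of the step before CTH, stood at 9.27, 9.29 and 9.24 in Dhx9.1241 cells, against 9.23, 9.18 and 9.17 in Rluc.713 cells. The groups were separated by a gap of 0.01 only, and the log2 difference of 0.07 (95% interval -0.04 to 0.18, limma adjusted p = 0.627) did not pass.

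For cystine uptake, Slc7a11 stood at 6.36, 6.26 and 6.30 in Dhx9.1241 cells, against 6.36, 6.31 and 6.36 in Rluc.713 cells. The arrays of the hairpins overlapped, and the log2 difference was -0.04 (95% interval -0.15 to 0.08, limma adjusted p = 0.877). The probe set was dim, below the lower quartile of levels over all genes, where RMA compresses differences. It is the member whose printed promoter holds the composite element in 2 places.

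Glutathione synthesis showed no called member. Gclc, which encodes the catalytic subunit of glutamate-cysteine ligase, stood at 12.81, 12.76 and 12.85 in Dhx9.1241 cells, against 12.68, 12.73 and 12.82 in Rluc.713 cells. Gclm, the modifier subunit gene, stood at 11.55, 11.52 and 11.54 in Dhx9.1241 cells, against 11.49, 11.62 and 11.62 in Rluc.713 cells. For both subunits the arrays overlapped, with Rluc.713 replicate 1 the lowest array of each gene. The log2 difference of Gclc was 0.07 (95% interval -0.06 to 0.19, limma adjusted p = 0.734), and 0.037 without Rluc.713 replicate 1. That of Gclm was -0.04 (interval -0.16 to 0.08, limma adjusted p = 0.871), and -0.08 without Rluc.713 replicate 1. Gss, which encodes the enzyme that adds glycine, averaged 9.15 ± 0.027 in Dhx9.1241 cells and 9.17 ± 0.0072 in Rluc.713 cells (SD, n = 3 each). Its arrays overlapped, and its log2 difference was -0.02 (interval -0.12 to 0.09, limma adjusted p = 0.956), the nearest to 0 of the 10 genes.

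Gsr, the gene of glutathione reductase, stood at 10.64, 10.67 and 10.60 in Dhx9.1241 cells, against 10.51, 10.48 and 10.50 in Rluc.713 cells. All Dhx9.1241 arrays lay above all controls, by a gap of 0.09. The log2 difference of 0.14 (SE 0.046, 95% interval 0.04 to 0.25) had an unadjusted p of 0.0137 and did not pass over all genes (limma adjusted p = 0.178). Under the 15 alternative settings its adjusted p ran between 0.0566 and 0.51.

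Mgst1 stood at 8.11, 7.94 and 8.28 in Dhx9.1241 cells, against 8.55, 8.95 and 8.84 in Rluc.713 cells. Its arrays did not overlap, but it varied most within a hairpin of the 10 genes, with an SD of 0.17 in Dhx9.1241 cells and 0.207 in Rluc.713 cells (n = 3 each). Mgst1 fell by 0.67 on the log2 scale (SE 0.116, 95% interval -0.93 to -0.40, limma adjusted p = 0.0211), a level 1.59-fold lower with an interval of 1.32 to 1.91. The call was lost without Dhx9.1241 replicate 1 (limma adjusted p = 0.0982) or replicate 2 (0.0741), and without Rluc.713 replicate 2 (0.0715) or replicate 3 (0.0828), with log2 differences of -0.58 to -0.67. Without Rluc.713 replicate 1 the difference was -0.78 (limma adjusted p = 0.00411).

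Mgst1 is also expressed in macrophages and fibroblasts, so the markers of other cells are set beside it. Of 11 measured myeloid markers 4 were called lower (Lyz2, Csf1r, Tyrobp and Fcer1g) and none higher, against 1.07% and 2.07% of all genes. At an unadjusted p under 0.05, 6 were lower and 2 higher, against 1058 and 1597 of all 18784 genes. The 2 higher were Fcgr3 (log2 difference 0.22) and Itgam (0.21), and their arrays did not overlap. Beside the 4 called genes, the lower ones were Mpeg1 (-0.37) and Mpo (-0.12), whose arrays did not overlap either. Without 1 array, Csf1r kept its call in 2 and Fcer1g in 1 of the 6 fits. The summed linear level of the 11 markers was 8237 to 8759 in Dhx9.1241 cells, against 9527 to 10148 in Rluc.713 cells. Without Fcgr3, the brightest, the other 10 summed to 4880 to 5177 in Dhx9.1241 cells, against 6624 to 7039 in Rluc.713 cells. The lysozyme gene Lyz2, the marker with the largest difference, averaged 9.35 in Dhx9.1241 cells and 10.66 in Rluc.713 cells, while Adgre1, a macrophage surface marker gene, averaged 6.42 and 6.43 in that order. The Adgre1 probe set was dim, below the lower quartile of levels over all genes, where RMA compresses differences, so a difference in it may be missed. The 13 fibroblast markers summed to 18322 to 19042 in Dhx9.1241 cells, against 17428 to 17678 in Rluc.713 cells, and 1 of them, Cav1, was called lower, a call lost in all 6 fits without 1 array. Vim, which lymphoid cells express as well, made up 78.8% to 82.6% of that sum, and the other 12 fibroblast markers summed to 3300 to 3349 in Dhx9.1241 cells, against 3307 to 3745 in Rluc.713 cells, so the higher sum in Dhx9.1241 cells rests on Vim. The 9 T and NK cell markers summed to 1543 to 1624 in Dhx9.1241 cells, against 1492 to 1606 in Rluc.713 cells, with none called by limma and 1 higher at an unadjusted p under 0.05. RMA values have no zero, so no marker can be called absent, and in bulk RNA fewer cells of a type and less RNA per cell cannot be told apart. The part of other cells in the Mgst1 difference was not tested.

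In glutathione breakdown, Chac1 stood at 9.79, 10.04 and 9.85 in Dhx9.1241 cells, against 10.47, 10.69 and 10.48 in Rluc.713 cells. The highest Dhx9.1241 array lay 0.43 below the lowest control, and the SD was 0.129 in Dhx9.1241 cells and 0.122 in Rluc.713 cells (n = 3 each). Chac1 fell by 0.65 on the log2 scale (SE 0.083, 95% interval -0.84 to -0.46, limma adjusted p = 0.00575), a level 1.57-fold lower with an interval of 1.38 to 1.80. Without Rluc.713 replicate 1 it was -0.69 (limma adjusted p = 0.00527). Its printed promoter holds the composite element that is also in the Slc7a11 promoter.

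Chac2, which encodes the other CHAC enzyme, slower and regarded as the housekeeping form, stood at 10.32, 10.24 and 10.35 in Dhx9.1241 cells, against 10.15, 10.29 and 10.31 in Rluc.713 cells. The arrays overlapped, and the log2 difference was 0.06 (95% interval -0.08 to 0.20, limma adjusted p = 0.837). It was 0.0039 without Rluc.713 replicate 1, the lowest array. Whether the differences of Chac1 and Chac2, or of Cth and Cbs, differ from each other was not tested.

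**Figure D2:**
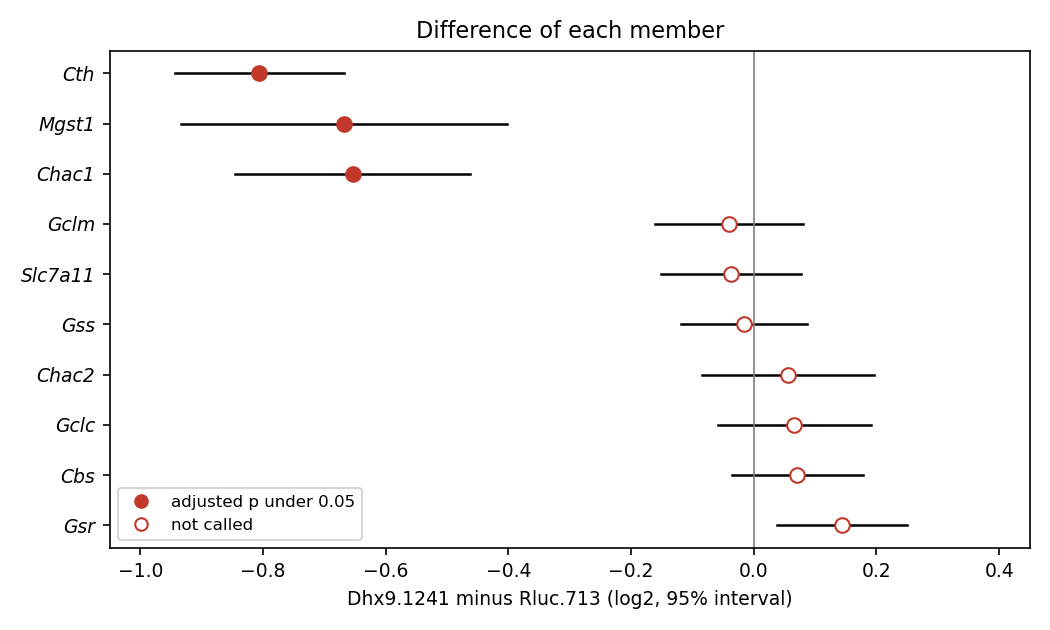
Difference Dhx9.1241 minus Rluc.713 (log2) of each gene with its 95% interval from the limma fit; filled points passed an adjusted p under 0.05. Cth, Mgst1 and Chac1 lie between -0.81 and -0.65 and the other 7 between -0.04 and 0.14, of which the interval of Gsr alone leaves out 0.

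The calls of Cth and Chac1 held in each of the 15 alternative settings, with log2 differences of -0.85 to -0.76 for Cth and -0.73 to -0.58 for Chac1. Mgst1 was tested in 14 of them, since it lies under the median level and leaves the test when genes below that level are dropped. It was called in 10 of the 14, and the 4 in which the call was lost were fits without 1 array.

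**Figure D3:**
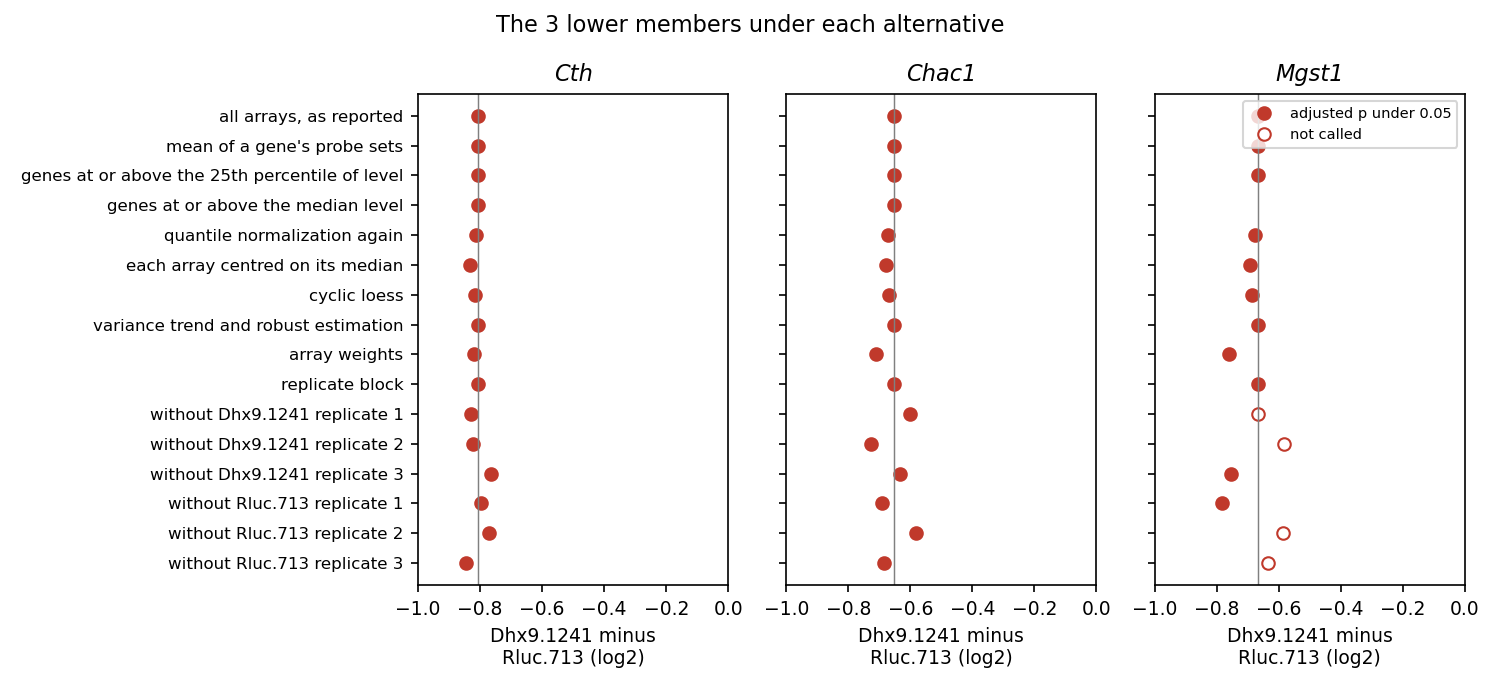
Log2 difference Dhx9.1241 minus Rluc.713 of Cth, Chac1 and Mgst1 with all arrays as reported and under each alternative setting; filled points had an adjusted p under 0.05 and the vertical line marks the reported value. Open points occur for Mgst1 in 4 of the 6 fits without 1 array, and Mgst1 has no point where genes below the median level were dropped.

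The genes around these 10 were followed in 10 lists that leave the 10 genes out. The lists were written from knowledge of the pathway, but with earlier results of these data known, so their counts are not independent evidence. Of 161 measured genes in the lists together, 8 were called lower (1.07% of all genes were) and 4 higher (2.07% of all genes were), and 149 did not pass. The median log2 difference over the 161 genes was -0.03. With each array centred on its median the counts were 8 lower and 2 higher. They shrank to 1 lower and 0 higher without Dhx9.1241 replicate 3, to 3 and 0 without Dhx9.1241 replicate 1, and to 3 and 1 without Dhx9.1241 replicate 2, Rluc.713 replicate 2 or Rluc.713 replicate 3, and were 10 and 4 without Rluc.713 replicate 1.

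Among 18 genes of the methionine cycle and of sulfur amino acid breakdown, 1 was lower, against 1.07% of all genes. Ethe1, which encodes a mitochondrial enzyme of sulfide oxidation, stood at 9.99, 10.02 and 10.02 in Dhx9.1241 cells, against 10.23, 10.22 and 10.39 in Rluc.713 cells. The arrays did not overlap and the log2 difference was -0.27 (SE 0.059, limma adjusted p = 0.0494), at the edge of the threshold. It kept its call in 1 of the 6 fits without 1 array, that without Rluc.713 replicate 1, and lost it with each array centred on its median (limma adjusted p = 0.0591).

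Of 15 transporter genes for cystine, cysteine and glutamate, 1 was lower, against 1.07% of all genes. This was Slc1a4, which encodes a carrier of small neutral amino acids such as serine, alanine and cysteine. It stood at 10.51, 10.64 and 10.35 in Dhx9.1241 cells, against 10.89, 10.96 and 10.86 in Rluc.713 cells. The Dhx9.1241 arrays all lay below the controls, with a log2 difference of -0.41 (SE 0.075, limma adjusted p = 0.0279), called in 2 of the 6 fits without 1 array. Slc3a2, the heavy chain that pairs with SLC7A11, was named after its values were seen and had a difference of -0.01, which turned positive after quantile normalization again (0.0017) and cyclic loess (0.017).

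Of 9 genes of serine and glycine synthesis, which supply transsulfuration and glutathione, 1 was lower and 8 had a negative difference. Over all genes tested, 1.07% were called lower and 8924 of 18784 had a negative difference. Psat1, a serine synthesis gene, stood at 12.87, 12.88 and 12.87 in Dhx9.1241 cells, against 13.08, 13.18 and 13.17 in Rluc.713 cells. The arrays did not overlap, and the log2 difference was -0.27 (SE 0.048, limma adjusted p = 0.0249), called in 1 of the 6 fits without 1 array.

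Psat1 is also in the list of 31 measured ATF4 regulators and targets, where 2 genes were lower, 1 was higher and 28 did not pass. Over all genes, 1.07% were called lower and 2.07% higher. Of the 31, 23 had a negative log2 difference, against 8924 of all 18784 genes. The list median was -0.07, against 0.00 over all genes. In 10 of them the Dhx9.1241 arrays lay below all controls and in 2 above, against 8.51% and 11.6% of all genes. The second lower gene was Eif4ebp1, which encodes the translation repressor 4E-BP1, with a log2 difference of -0.25 (SE 0.046, limma adjusted p = 0.0271). Slc7a3, a transporter gene for cationic amino acids, was the higher gene. It stood at 8.72, 8.99 and 8.67 in Dhx9.1241 cells, against 8.31, 8.42 and 8.05 in Rluc.713 cells, a difference of 0.53 (SE 0.113, limma adjusted p = 0.0485). Its arrays did not overlap, and its call held in 1 of the 6 fits without 1 array, as did that of Eif4ebp1. Atf4 itself and 2 of its targets, Asns and Trib3, were named after their values were seen and did not pass, with differences of -0.12, -0.13 and -0.17. Atf3, Cars and Gpt2 of the same list, also named after their values were seen, did not pass. Atf3 lay on the higher side at 0.31 (limma adjusted p = 0.0534). Cars lay on the lower side at -0.30 (limma adjusted p = 0.0516), as did Gpt2 at -0.34 (limma adjusted p = 0.113). At an unadjusted p under 0.05, 10 of the 31 were lower and 2 higher, against 1058 and 1597 of all 18784 genes.

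Of 14 genes of the thioredoxin and peroxiredoxin system, which handles peroxides and disulfides beside glutathione, 3 were called lower by limma and none higher. Over all genes, 1.07% were called lower and 2.07% higher. At an unadjusted p under 0.05, 5 of the 14 were lower and none higher, against 1058 and 1597 of all 18784 genes. Prdx3, the gene of the mitochondrial peroxiredoxin, stood at 11.67, 11.66 and 11.72 in Dhx9.1241 cells, against 12.10, 12.12 and 12.13 in Rluc.713 cells. The groups lay far apart relative to an SD of 0.033 in Dhx9.1241 cells and 0.015 in Rluc.713 cells, and the log2 difference of -0.43 (SE 0.046, limma adjusted p = 0.00261) was called in each of the 15 alternatives. Txnrd3, a thioredoxin-glutathione reductase gene, stood at 10.44, 10.37 and 10.33 in Dhx9.1241 cells, against 10.70, 10.81 and 10.87 in Rluc.713 cells, a log2 difference of -0.41 (SE 0.060, limma adjusted p = 0.00981). Msra, a methionine sulfoxide reductase gene, had a log2 difference of -0.41 (SE 0.061, limma adjusted p = 0.0116). Txnrd3 was called in 5 and Msra in 4 of the 6 fits without 1 array.

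Among 29 glutathione transferases and exporters of glutathione conjugates, 1 was lower and 3 were higher, against 1.07% and 2.07% of all genes. Gstm1, a cytosolic transferase gene, stood at 9.78, 9.75 and 9.67 in Dhx9.1241 cells, against 9.98, 10.10 and 10.08 in Rluc.713 cells. Its arrays did not overlap, with a log2 difference of -0.32 (SE 0.057, limma adjusted p = 0.0231), but its close paralogs may share probes and its value is uncertain. Abcc4, a multidrug exporter gene, stood at 10.84, 10.79 and 10.80 in Dhx9.1241 cells, against 10.31, 10.42 and 10.49 in Rluc.713 cells, a log2 difference of 0.40 (SE 0.059, limma adjusted p = 0.0105). Its groups did not overlap. Hpgds, the gene of a prostaglandin D synthase that uses glutathione, had a log2 difference of 0.39 (SE 0.083, limma adjusted p = 0.0466) and the exporter gene Abcc5 of 0.30 (SE 0.062, limma adjusted p = 0.0412). Of the 6 fits without 1 array, Abcc4 was called in 4 and Gstm1, Hpgds and Abcc5 in 1 each, that without Rluc.713 replicate 1. With each array centred on its median, Hpgds (limma adjusted p = 0.071) and Abcc5 (0.0962) lost their calls.

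The remaining lists had no gene called by limma with all arrays and the settings above. Of 10 genes of glutathione and γ-glutamyl peptide breakdown, 1 was lower at an unadjusted p under 0.05, the dipeptidase gene Dpep2 with a log2 difference of -0.16 (limma adjusted p = 0.12). Of 16 glutathione peroxidase and glutaredoxin genes, none reached an unadjusted p under 0.05, and Glrx3, the glutaredoxin gene with the largest difference, stood at -0.12 (SE 0.119), or -0.0030 without Dhx9.1241 replicate 2 and -0.22 without Rluc.713 replicate 1. Of 11 genes of NADPH supply, which feeds glutathione reductase, 2 were higher at an unadjusted p under 0.05, with the mitochondrial transhydrogenase gene Nnt at 0.21 (SE 0.058, limma adjusted p = 0.117). Nnt was called in 4 of the 15 alternatives, with limma adjusted p-values of 0.0276 to 0.0433. Of 20 NRF2 regulators and targets, 3 were higher at an unadjusted p under 0.05, with the quinone reductase gene Nqo1 at 0.34 (SE 0.102, limma adjusted p = 0.153). For comparison with these counts, 1058 of all 18784 genes were lower and 1597 higher at an unadjusted p under 0.05.

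**Figure D4:**
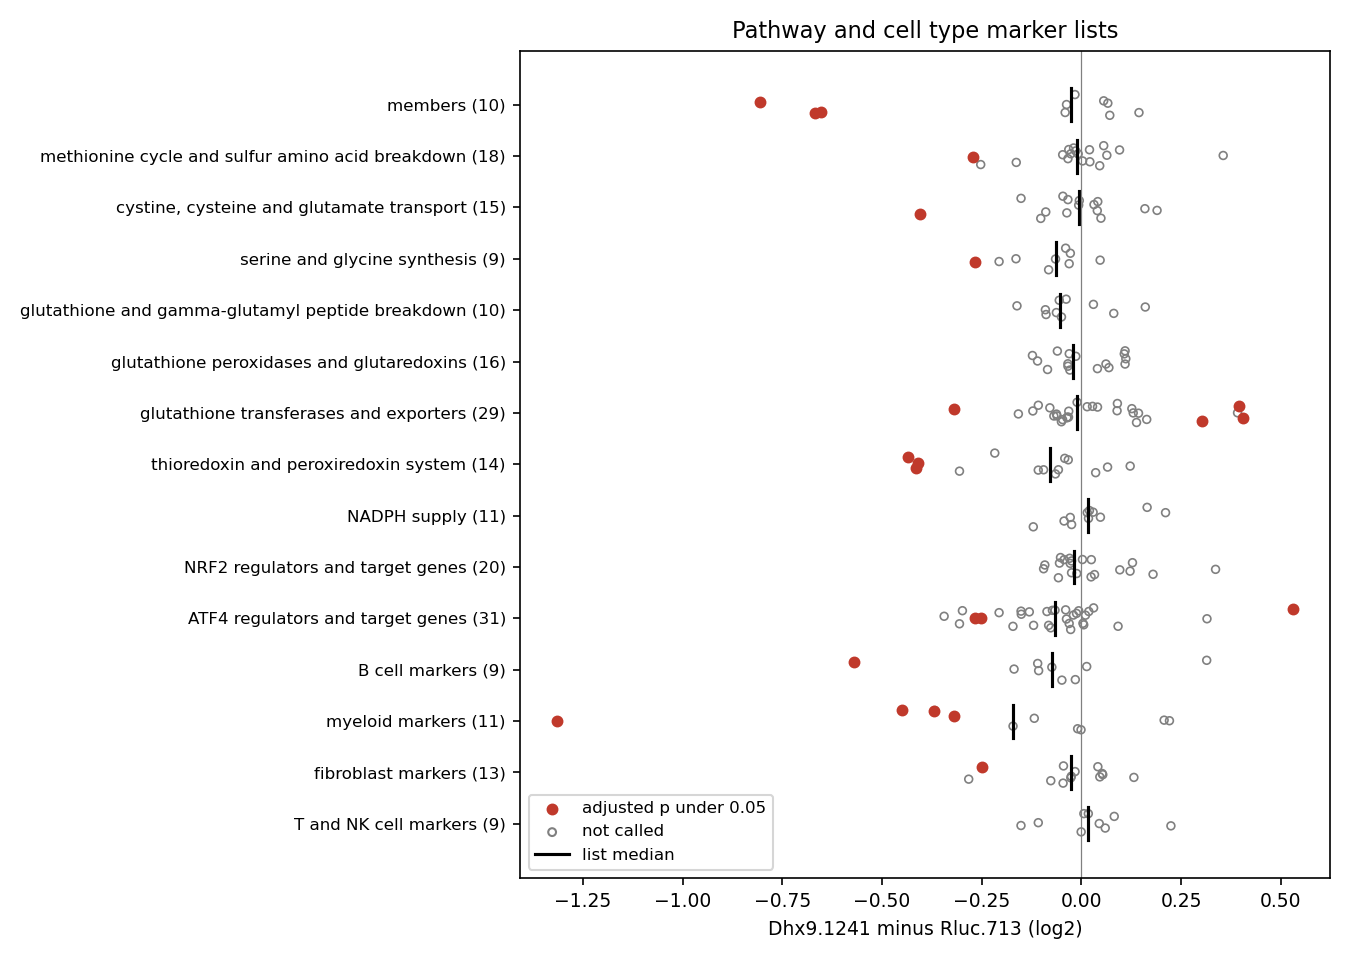
Log2 difference Dhx9.1241 minus Rluc.713 of every measured gene of the 10 genes, of the 10 pathway lists and of the 4 marker lists, with 1 point per gene, the number of genes in brackets and a bar at each list median. Filled points had an adjusted p under 0.05; among pathway lists the filled points lie between -0.43 and 0.53, closer to 0 than Cth at -0.81.

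The genes whose pattern over the 6 arrays was most like that of Cth, by the root mean square distance between levels centred on each gene's own mean, were Fcmr (0.055), Ltbp4 (0.070), Adam19 (0.081), Tnf (0.083) and Tm6sf1 (0.090). Each of the 5 was lower in Dhx9.1241 cells, with log2 differences of -0.90, -0.73, -0.75, -0.65 and -0.75 in the same order, as likeness to Cth requires.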

How the data were processed

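Total RNA of 6 lymphoma samples was labelled with biotin by a 3′ in vitro transcription kit for Affymetrix arrays, as the labels' protocols state. Deposited values are log2 expression levels, 1 per probe set and array, made by the authors with RMA, per the submitters' processing notes. The sources used here do not give the RMA version, the build or the probe set design. The log2 scale was read from the range of values (3.97 to 14.57).

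Of 21212 probe sets per array, 18786 had 1 gene symbol in the platform annotation, 6 several and 2420 were unnamed here. For current names, 18775 symbols were looked up by Entrez number (GRCm38.p6, names only). For 2 genes with several probe sets the brightest was used, leaving 18784 genes with no filter on dim genes. Dhx9.1241 minus Rluc.713 was estimated over all genes with limma 3.58.1 (lmFit and eBayes, R 4.3.3, two-sided, no covariate), with Benjamini-Hochberg adjustment over all genes and a threshold of 0.05. The fit was tested on simulated data.

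The members, lists and tests were chosen with earlier results of these data known. Of 172 pathway genes listed, 161 were used. Genes named in the text were the 10 members, Dhx9, Dhx29, up to 4 called genes per list or, where none was called, the gene with the largest difference, and the 5 genes nearest to Cth; others are marked as named after their values were seen or are cell type markers. Alternatives, 15 in all, were the mean over probe sets, filters at the 25th percentile and the median of level, quantile normalization again, median centring, cyclic loess, array weights, a variance trend with robust estimation, a block for the replicate number, and leaving out each array.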

Additional observations from a re-analysis of the deposited data

How the results depend on the processing

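Of 45 genes followed under the 15 alternatives, 43 kept their sign wherever they were tested. The exceptions, neither called in any setting, were Adgre1, at -0.01 with all arrays, 0.011 with array weights and -0.036 to 0.016 without 1 array, and Slc3a2, at -0.01 with all arrays, 0.017 after cyclic loess, 0.0017 when quantiles were equalised again and -0.038 to 0.017 without 1 array. Medians and summed levels of lists were not recomputed under the alternatives. The count of members called lower was 3 with all arrays and 2 or 3 under the alternatives, the 2 reflecting Mgst1 each time, and the count called higher was 0 in all of them. The count of pathway genes called lower, 8 with all arrays, was 15 with a variance trend and robust estimation, 14 with array weights, 4 with a replicate block and 1 to 10 without 1 array. The count of pathway genes called higher, 4 with all arrays, was 9 with genes below the median level dropped, 8 after quantile normalization again, 2 with each array centred on its median, 7 after cyclic loess, 7 with array weights, 10 with the robust variance trend, 2 with a replicate block and 0 to 4 without 1 array. The fewest called lower came without Dhx9.1241 replicate 3, and none was called higher without Dhx9.1241 replicate 1 or 3. A fit without 1 array has fewer samples, which by itself lowers its power; the cause of the other shifts was not tested.

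The replicate numbers gave no clear sign of pairing. Deviations from the group means of arrays with the same number correlated over genes at -0.27, -0.34 and 0.24, and only the arrays numbered 3 matched each other best. With 3 arrays per hairpin, these correlations cannot decide whether the samples were paired. With the block, Cth (adjusted p = 0.00315), Chac1 (0.00502) and Mgst1 (0.0413) were still called by limma, as were the other called genes named in the report except Ethe1 (0.118), Psat1 (0.101), Gstm1 (0.0904), Eif4ebp1 (0.119), Hpgds (0.128), Abcc5 (0.136), Fcer1g (0.0967) and Cav1 (0.117). The median log2 difference over all genes lay between -0.02 and 0.02 in every setting, on either side of 0. Signal over background cannot be judged from RMA values, so small differences of dim probe sets such as that of Slc7a11 are not resolved.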
